A study of Danio rerio with 11 samples.

Results

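The genes nfe2l2a, keap1a, gclc, gclm, gsr and pgd encode the sensor pair of the antioxidant response and enzymes that make and recharge glutathione. They were taken by their symbols in the platform annotation of an Affymetrix zebrafish array. They make up 6 of the 8793 gene symbols on the array and 7 of its 15502 probe sets, since nfe2l2a has 2. All 7 probe sets reached 6 on the log2 scale on 1 array or more and were tested among 9803 probe sets that did so.

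RNA came from whole zebrafish embryos, with 30 embryos to a cup and 100 ml of medium. Each exposed cup received 250 mg of weathered oil emulsion, a mix of oil, seawater and sand from the Gulf of Mexico shoreline. Gulfport emulsion was given over 3 windows of 48 h, from 0, 24 or 48 hours post fertilization (hpf), with collection at 48, 72 and 96 hpf and 1 array each. Fort Morgan and Perdido Key emulsions were given from 24 to 72 hpf, with 1 array each. Control embryos were kept in medium without emulsion and gave 1, 3 and 2 arrays at 48, 72 and 96 hpf. The labels name no strain or genotype. They do not say whether the control arrays of 1 age stem from different cups or spawnings. The p-values here thus reflect a spread between arrays that could be technical. At 72 hpf the 3 exposed arrays, 1 per emulsion, stand as the replicates of exposure, so their spread also holds differences between emulsions. Where all ages are fitted together, it also holds differences between exposure windows.

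The transcription factor Nrf2, encoded by nfe2l2a, is held at a low level by Keap1, an adaptor that brings it to a Cullin 3 ubiquitin ligase for breakdown. Electrophiles and oxidants modify cysteines of Keap1, Nrf2 then escapes breakdown, pairs with small Maf proteins and switches on genes with antioxidant response elements, in zebrafish embryos as in mammals. Among these are the catalytic and modifier subunits of glutamate-cysteine ligase (gclc and gclm), which set the pace of glutathione synthesis, and glutathione reductase (gsr), which returns oxidised glutathione to its reduced form. The reductase needs NADPH, part of which comes from 6-phosphogluconate dehydrogenase (pgd) in the pentose phosphate pathway. Zebrafish carry further copies of the sensor genes, nfe2l2b and keap1b, which were not analysed here.

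The aryl hydrocarbon receptor target cyp1a, used as a check of exposure, lay at 12.63 to 13.26 on the log2 scale in the 5 exposed arrays, against 6.33 to 8.76 in the 6 control arrays. Marker genes of muscle, heart, blood, neurons, glia, epidermis, lens, pancreas and leukocytes were read as well. All 9 on the array reached a log2 value of 6 in 10 of the 11 arrays, and 8 of 9 did so in the Perdido Key array. Array medians lay above 6, so reaching it does not by itself show that a tissue was present. Nearest this level were the markers of lens (cryaa, 6.28 to 6.98), leukocytes (lcp1, 5.86 to 6.68) and, at 48 hpf, pancreas (prss1, 6.10 in Gulfport and 6.19 in the control). Of 12 liver markers on the array, 10 reached 6 in every array, and hpxa and hpxb did not. Nearest this level among the 10 was fabp10a at 48 hpf, with 6.16 in Gulfport and 6.01 in the control. In bulk RNA, fewer cells of a type and less RNA per cell cannot be told apart. Array medians were 6.37 to 6.42, which the quantile normalization behind these values sets. At 72 hpf control replicate 2 and the Perdido Key array had lower quartiles of 4.75 for each, against 4.81 to 4.83 in the other 4 arrays of that age.

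Embryos kept with emulsion from 24 to 72 hpf had higher signal for all 6 genes than control embryos of the same age, and 5 of the 6 passed the test. The largest rise was that of gsr, at 2.33-fold, followed by nfe2l2a at 1.87-fold, pgd at 1.76-fold, gclc at 1.72-fold and gclm at 1.64-fold. The difference in keap1a, 0.58 on the log2 scale, did not pass. Over all 9803 probe sets, 0.479% rose and 0.0918% fell at this age (limma, adjusted p under 0.05). The median log2 difference was 0.80 over the 6 genes and -0.02 over all probe sets tested. All 6 genes lay above every control array in each of the 3 exposed arrays, as did 6.92% of all probe sets. The 6 genes were chosen with earlier results of these data known. Their excess over the shares of all probe sets, here and below, is thus a description and not independent evidence.

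The Nrf2 gene nfe2l2a was measured at log2 values of 9.10, 8.90 and 9.16 in the Gulfport, Fort Morgan and Perdido Key arrays, against 8.11, 8.12 and 8.22 in the 3 controls. The lowest exposed array was thus clear of the highest control by more than the whole range of either group, which was 0.26 in exposed and 0.10 in control arrays. The difference was 0.90 (SE 0.10, limma adjusted p = 0.00687, n = 3 each, the exposed arrays being 1 per emulsion). A second, dimmer probe set of nfe2l2a read 6.06, 6.06 and 6.35 in the same exposed arrays, against 5.64, 6.06 and 5.82 in controls. In it the Gulfport and Fort Morgan arrays were level with control replicate 2 to 2 decimals, and its difference of 0.32 (SE 0.13) did not pass (limma adjusted p = 0.557). With the mean of both probe sets in place of the brighter one, the difference in nfe2l2a was 0.61 and did not pass (limma adjusted p = 0.0613).

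The gene keap1a, for the adaptor that restrains Nrf2, stood at 7.88, 7.74 and 7.36 in Gulfport, Fort Morgan and Perdido Key arrays, against 7.08, 6.82 and 7.33 in controls. The groups did not overlap, but the Perdido Key array was only just above control replicate 3, and the controls alone spanned 0.51. The mean difference of 0.58 (SE 0.17, 95% interval 0.19 to 0.97) did not pass over all probe sets (limma adjusted p = 0.374). It lay between 0.45 and 0.73 when any 1 of the 6 arrays was left out.

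Among the synthesis genes, gclc read 8.50, 8.54 and 8.71 in the Gulfport, Fort Morgan and Perdido Key arrays, against 7.82, 7.77 and 7.80 in controls. Its control arrays were the tightest of the 6 genes, with an SD of 0.02 (n = 3), and the difference of 0.78 (SE 0.09, limma adjusted p = 0.00965) was the one with the smallest error. The modifier subunit gene gclm read 7.94, 7.90 and 7.71 in the same exposed arrays, against 7.06, 7.27 and 7.09 in controls. Its difference was 0.71 (SE 0.10, limma adjusted p = 0.0298). The order of the emulsions was opposite for the subunits: Perdido Key was highest for gclc and lowest for gclm, although no difference between these emulsions passed.

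The recycling gene gsr stood at 8.55, 8.06 and 8.32 in Gulfport, Fort Morgan and Perdido Key arrays, against 7.18, 7.02 and 7.08 in controls. The difference of 1.22 (SE 0.13, limma adjusted p = 0.00687) ranked 34th from the highest among all 9803 probe sets. The NADPH source pgd read 9.78, 9.40 and 9.55 in the same exposed arrays, against 8.75, 8.66 and 8.88 in controls, a difference of 0.82 (SE 0.12, limma adjusted p = 0.0288). For both genes Gulfport was highest, Perdido Key next and Fort Morgan lowest.

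**Figure D1:**
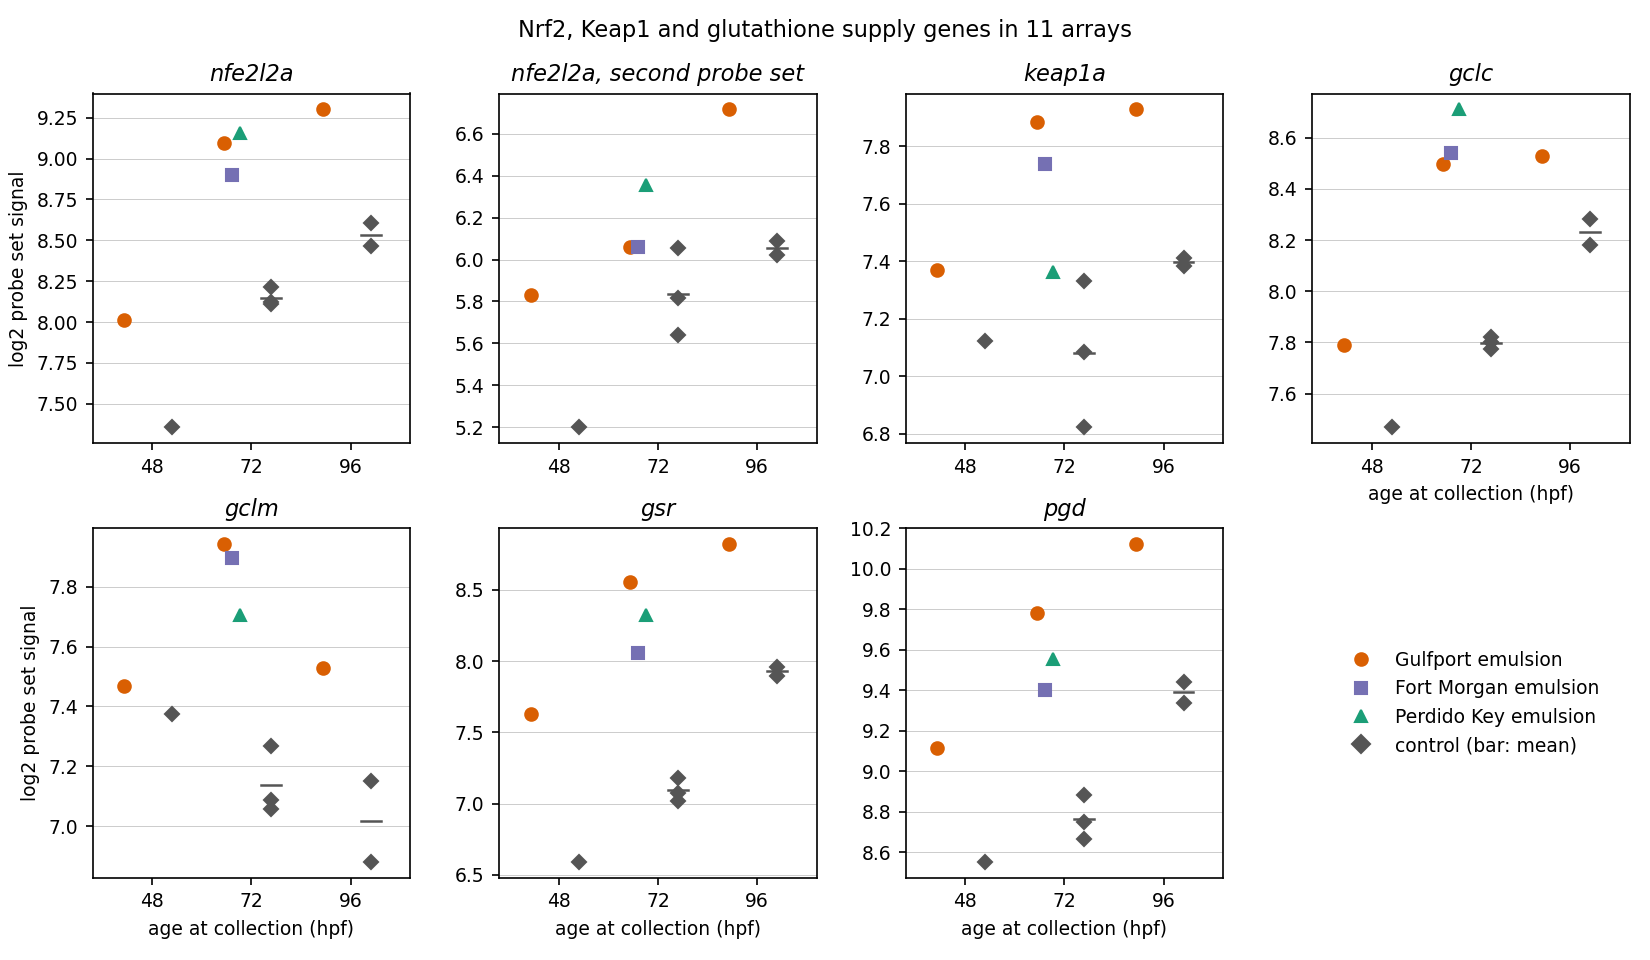
Log2 probe set signal (vertical axes, each panel with its own scale) of the 6 genes and of the second nfe2l2a probe set against age at collection in hours post fertilization, 1 symbol per array, with emulsion arrays left of control arrays at each age and bars at the mean of controls. In all 7 panels each of the 5 emulsion arrays lies above every control array of its age, narrowly so for the second nfe2l2a probe set in the Gulfport and Fort Morgan arrays at 72 hpf and for keap1a in the Perdido Key array.

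Most of these calls needed every control array. Of the 5, only gsr was kept without control replicate 1 or 2, gsr and nfe2l2a were kept without control replicate 3 or Fort Morgan, and gsr, nfe2l2a and gclc without Gulfport, while all 5 were kept without Perdido Key (lost calls had limma adjusted p = 0.0512 to 0.162). The differences themselves kept their sign and moved little, for example 0.66 to 0.78 for gclm and 0.71 to 0.90 for pgd. Within the 4 arrays of higher lower quartile the 6 differences were 0.60 to 1.18, and within the pair of lower quartile, Perdido Key minus control replicate 2, they were 0.44 to 1.31.

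With age as a factor and all 11 arrays, the same 5 genes rose, gsr by 1.11 (SE 0.09, limma adjusted p = 8.79e-05), nfe2l2a by 0.82 (SE 0.07, adjusted p = 9.20e-05) and pgd by 0.75 (SE 0.08, adjusted p = 0.000582). For gclc and gclm the differences were 0.58 (SE 0.09, limma adjusted p = 0.00838) and 0.54 (SE 0.10, adjusted p = 0.0204). The second probe set of nfe2l2a also rose here, by 0.46 (SE 0.10, limma adjusted p = 0.0467). The difference in keap1a was 0.51 (SE 0.11) and did not pass (limma adjusted p = 0.0645), though it did without Perdido Key (adjusted p = 0.0356) and with a variance trend and robust moderation (adjusted p = 0.0489). Of all probe sets, 1.07% rose and 0.235% fell in this fit, which shares its 72 hpf arrays with the comparison above. All 5 exposed arrays exceeded every control of their age for all 6 genes, against 3.16% of all probe sets. With only Gulfport and control arrays, gclc (0.46, adjusted p = 0.0708) and gclm (0.52, adjusted p = 0.148) did not pass, and gclm was also lost without control replicate 1 or 3 at 72 hpf, Fort Morgan or the Gulfport array at 96 hpf (limma adjusted p = 0.0616 to 0.0885).

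The emulsions were then set against the 3 controls singly, in a fit that took the spread of a lone array to equal that among controls. In the Gulfport array at 72 hpf 5 genes rose, gsr by 1.46, pgd by 1.02, nfe2l2a by 0.94, gclm by 0.80 and gclc by 0.70 (SE 0.12 to 0.16, limma adjusted p = 0.00210 to 0.0419), where 1.74% of all probe sets rose and 2.71% were called in either direction. The value for keap1a was also 0.80 and did not pass (limma adjusted p = 0.0756), though it did with a variance trend and robust moderation (0.0437). In the Perdido Key array 3 genes rose, against 0.224% of all probe sets: gsr by 1.23, nfe2l2a by 1.01 and gclc by 0.91 (SE 0.12 to 0.13, limma adjusted p = 0.00954 to 0.0387). There pgd differed by 0.79, gclm by 0.57 and keap1a by 0.28, none of which passed (adjusted p = 0.115 to 1.00). In the Fort Morgan array 1 gene rose, gsr by 0.97 (SE 0.13, limma adjusted p = 0.0371), against 0.204% of all probe sets. The other 5 differed by 0.64 to 0.76 in that array (limma adjusted p = 0.0866 to 0.472). Without any 1 control at 72 or 96 hpf, gsr no longer passed for Fort Morgan (adjusted p = 0.0518 to 0.125), and gsr alone passed for Perdido Key. The Gulfport calls of gclc were lost without 72 hpf control replicate 2 or 3 and those of gclm without any of the 3 (adjusted p = 0.0636 to 0.106).

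The emulsions were also set against each other. None of the 18 differences between pairs of emulsions over the 6 genes passed (limma adjusted p = 0.489 to 1.00), where 0% of all probe sets were called between Fort Morgan and either other emulsion, and 0.0612% between Gulfport and Perdido Key (0.051% higher and 0.0102% lower in Gulfport). The 95% interval left out 0 for 1 of the 18: gsr was 0.50 higher in Gulfport than in Fort Morgan (interval 0.13 to 0.86, limma adjusted p = 0.812). Unadjusted, 470 to 1026 of all probe sets had a limma p under 0.05 in the 3 pairs. The widest gap was that of keap1a between Gulfport and Perdido Key, 0.52, with an interval from -0.02 to 1.06. For nfe2l2a the intervals of the 3 differences together reached from -0.63 to 0.57. With 1 array each, differences between emulsions within these bounds thus remain possible for this gene.

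In each of the 3 Gulfport windows all 6 genes were above their controls, by unequal amounts. At 48 hpf, after exposure from fertilization on, gsr read 7.63 in the Gulfport array against 6.59 in the control, a difference of 1.04 and the only one of the 6 to reach 1, as 0.265% of all probe sets did in that direction. With 1 array on each side there is no test. The differences were 0.66 for nfe2l2a (8.01 in Gulfport and 7.36 in the control), 0.57 for pgd (9.12 and 8.55), 0.32 for gclc (7.79 and 7.47), 0.25 for keap1a (7.37 and 7.12) and 0.09 for gclm (7.47 and 7.37). The subunits of the ligase and keap1a were thus the nearest to their control in the early window. The 0.09 of gclm is smaller than the SD of its controls at 72 hpf, 0.11. So is the 0.246 of keap1a, with an SD of 0.255 in its controls at 72 hpf. The second probe set of nfe2l2a differed by 0.63, close in size to the first. Both of its values were below log2 6 (5.83 in Gulfport and 5.20 in the control), so this likeness carries little weight. The median over the 6 genes was 0.44, and 0.01 over all probe sets.

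At 96 hpf, after exposure from 48 hpf on, gsr read 8.82 in the Gulfport array, against 7.96 and 7.90 in the 2 controls, a difference of 0.89 (SE 0.14, limma adjusted p = 0.0861). For nfe2l2a the values were 9.30 in Gulfport and 8.47 and 8.60 in controls, and for pgd 10.12 in Gulfport and 9.34 and 9.44 in controls. The differences were 0.77 and 0.73 (limma adjusted p = 0.145 and 0.199). The array of Gulfport held keap1a at 7.93, against 7.38 and 7.41, and gclm at 7.53, against 6.88 and 7.15. The gene gclc had the smallest difference of this window, 0.30 (8.53 in Gulfport, 8.18 and 8.28 in controls). None of the 6 passed with limma, where 9 of all probe sets (0.0918%) did. Unadjusted, 5 of the 6, all but gclc, and 454 of all probe sets had a limma p under 0.05. With a variance trend and robust moderation gsr passed (adjusted p = 0.0408).

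Set side by side, Gulfport differences of all 6 genes were highest in the 24 to 72 hpf window. Each window had 1 Gulfport array and its own age at collection, so window, age and array cannot be told apart. For nfe2l2a, keap1a, gclm and pgd the 48 to 96 hpf window came next and the 0 to 48 hpf window last. For gsr and gclc the early window came next, at 1.04 and 0.32, and the late window last, at 0.89 and 0.30. For gclc that order turned without 96 hpf control replicate 2, where the late value was 0.35. The second probe set of nfe2l2a had another order, with 0.63, 0.22 and 0.66 in the early, middle and late windows. The late minus the middle difference could be tested and did not pass for any gene (limma adjusted p = 0.380 to 0.858), nor for any of the 9803 probe sets (0%), of which 953 had an unadjusted p under 0.05. Among the 6 it was -0.57 for gsr (95% interval -1.01 to -0.13), -0.40 for gclc and -0.18 to -0.29 for the rest, with intervals that include 0.

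**Figure D2:**
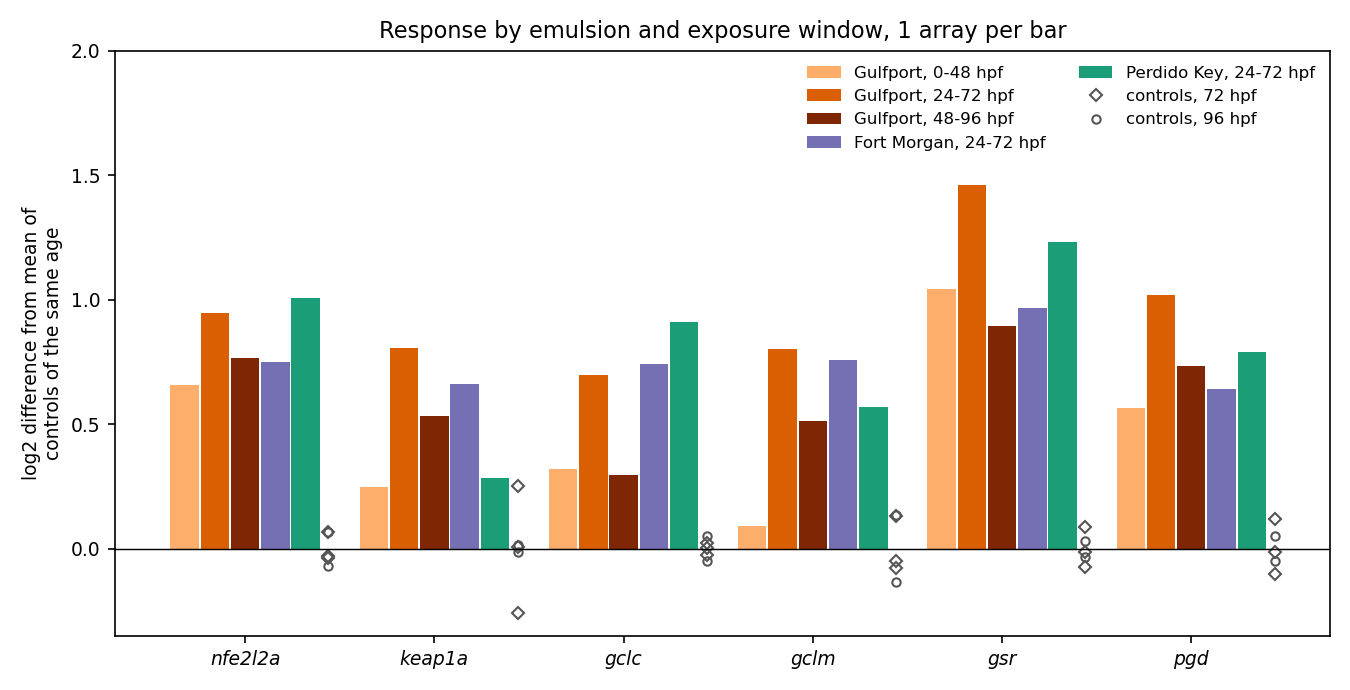
Log2 difference of each exposed array from the mean of controls of its age (vertical axis) for the 6 genes, with the 3 Gulfport windows in order of age, then Fort Morgan and Perdido Key; open symbols show the single controls at 72 and 96 hpf around their own mean. All 30 bars are above 0, from 0.09 for gclm in the 0 to 48 hpf window to 1.46 for gsr in the 24 to 72 hpf window.

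Several of the genes also changed with age in embryos that never met emulsion. Between 96 and 72 hpf in controls gsr rose by 0.84 (SE 0.10, limma adjusted p = 0.00194), pgd by 0.62 (SE 0.11, adjusted p = 0.0117) and gclc by 0.43 (SE 0.10, adjusted p = 0.0319), where 6.29% of all probe sets rose and 3.31% fell (9.6% in all). Differences of 0.39 for nfe2l2a, 0.32 for keap1a and -0.12 for gclm did not pass (limma adjusted p = 0.0553 to 0.582). The call of gclc was lost without any 1 of the 5 controls at 72 and 96 hpf (adjusted p = 0.0621 to 0.196) and that of pgd without either control at 96 hpf (0.0504 and 0.103). From the 48 hpf control array to the mean of the 72 hpf controls, nfe2l2a differed by 0.79, gsr by 0.50, gclc by 0.33, pgd by 0.21, keap1a by -0.04 and gclm by -0.24, with no test for a lone array. Control means of gclm were thus lower at each later age, though without 96 hpf control replicate 1 the last step was 0.01, and those of nfe2l2a, gclc, gsr and pgd were higher.

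Exposed arrays were therefore also set against controls of every age. For gclm all 5 exposed arrays (lowest 7.47) exceeded all 6 controls (highest 7.37, at 48 hpf), as was the case for 0.5% of all probe sets. For nfe2l2a, gclc and gsr the exposed arrays at 72 and 96 hpf exceeded all 6 controls, and the 48 hpf Gulfport array did not. That array was above the 3 controls a day older for gsr (7.63, against 7.02 to 7.18) and pgd (9.12, against 8.66 to 8.88). The same held for gclm (7.47, against 7.06 to 7.27) and keap1a (7.37, against 6.82 to 7.33). For gclc it lay within the range of those controls (7.79, against 7.77 to 7.82). For nfe2l2a it lay below them (8.01, against 8.11 to 8.22). For keap1a and pgd 3 of 5 exposed arrays exceeded every control. No share of all probe sets was counted for fewer than all 5 exposed arrays. The counts for genes other than gclm are thus a description, and whether they are unusual was not tested.

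**Figure D3:**
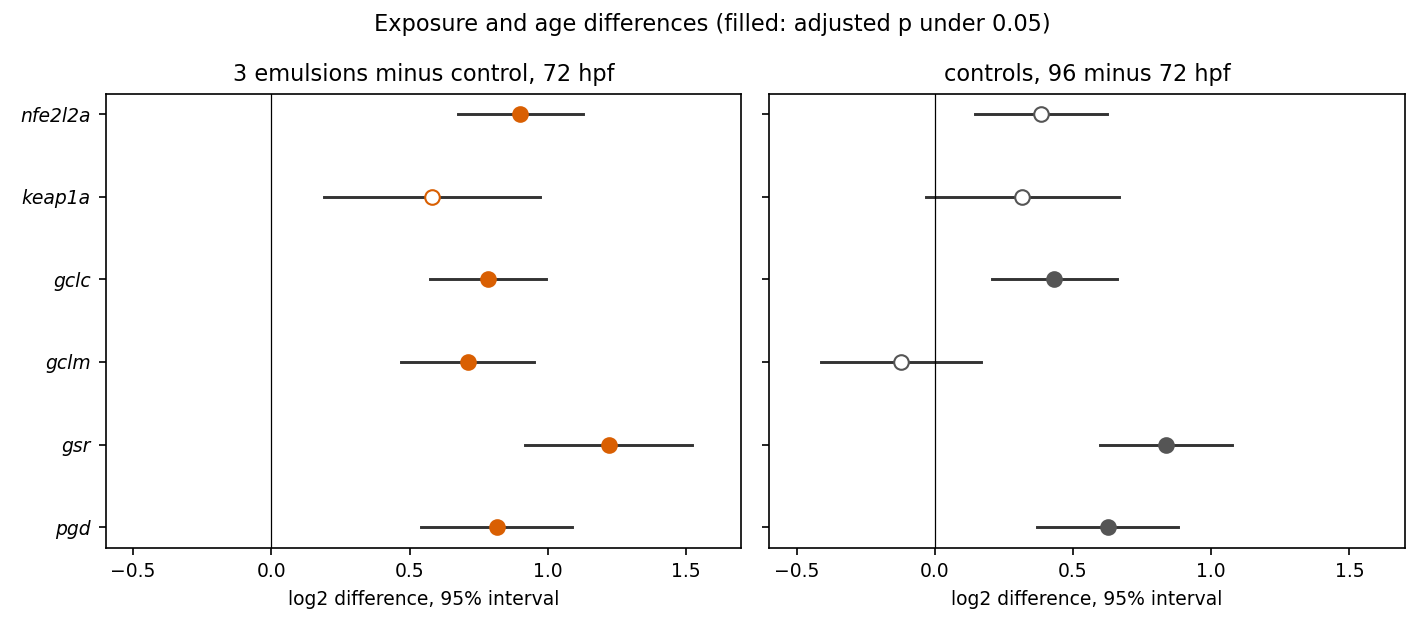
Log2 differences (horizontal axes) with 95% intervals from limma for the 6 genes, exposed minus control at 72 hpf on the left (3 arrays each) and controls at 96 minus 72 hpf on the right (2 and 3 arrays), filled where the adjusted p was under 0.05. The exposure differences are all above 0, from 0.58 to 1.22, while the age difference of gclm is -0.12 and that of gsr is 0.84.

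Other genes of these pathways were read against the 0.571% of all probe sets called at 72 hpf and the 1.31% called with age as a factor. At such shares a count of 0 in a list of this length says nothing particular about the list. Of 25 further genes listed as regulators and partners of Nrf2, 10 were tested and 0 passed in either direction at 72 hpf or with age as a factor, with a median of -0.02 at 72 hpf. Those of the largest difference were sqstm1 and maff. The autophagy receptor gene sqstm1, whose product binds Keap1 in mammals, read 9.45, 8.42 and 8.26 in Gulfport, Fort Morgan and Perdido Key arrays, against 7.24, 7.49 and 7.57 in controls (difference 1.28, SE 0.28, limma adjusted p = 0.172). The groups stood apart, but Gulfport was far above the other emulsions. Without Gulfport the difference in sqstm1 was 0.91 and passed (adjusted p = 0.0341). With all arrays kept, sqstm1 passed with the spread of controls alone (limma adjusted p = 0.0196). Here and below, that setting leaves differences between emulsions out of the spread. It called 129 of all probe sets at 72 hpf, against 56 in the main fit, so its passes are easier to reach. For the small Maf gene maff the difference was 0.63 (limma adjusted p = 0.324, and 0.0311 with the spread of controls alone). With age as a factor maff differed by 0.52 (adjusted p = 0.0602) and passed without the 72 hpf Gulfport array or Fort Morgan, with a variance trend and robust moderation, and with array weights (adjusted p = 0.0343 to 0.0493). The other regulators tested, from crebbpa to nfe2l3, lay between -0.16 and 0.25 at 72 hpf. Of these, nfe2 reached log2 6 in 1 exposed array and in no control, so it entered the test only through an exposed array.

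In glutathione synthesis, reduction and breakdown, 12 of 28 further genes were tested and 0 passed at 72 hpf, against 0.571% of all probe sets, with a median of -0.01. The glutathione peroxidase gene gpx1a, whose enzyme oxidises glutathione while it removes peroxide, rose with age as a factor by 0.51 (SE 0.07, limma adjusted p = 0.00236). Of the 12 it was the only one to rise in that fit, where 1.07% of all probe sets rose. At 72 hpf it read 9.75, 9.56 and 9.66 in Gulfport, Fort Morgan and Perdido Key arrays, against 9.26, 9.26 and 9.28 in controls, and did not pass (adjusted p = 0.176). Its paralog gpx1b read 9.35, 8.20 and 7.30 in the same exposed arrays, against 7.70, 7.06 and 7.53 in controls, so the groups overlapped. The S-formylglutathione hydrolase gene esd differed by -0.26 (limma adjusted p = 0.551). The glutathione synthetase gene gss was not analysed here.

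Of 20 further genes of NADPH supply, 11 were tested and 0 passed at 72 hpf, against the same 0.571%, with a median of -0.06. The cytosolic isocitrate dehydrogenase gene idh1 differed by 0.42 at 72 hpf (limma adjusted p = 0.251). With age as a factor 1.07% of all probe sets rose, and of the 11 genes only idh1, by 0.38 (SE 0.07, limma adjusted p = 0.0186). This call was lost without control replicate 1 or 2 at 72 hpf, Fort Morgan or either array at 48 hpf (adjusted p = 0.0561 to 0.0718) and with only Gulfport and control arrays (0.31, adjusted p = 0.167). The genes taldo1 and tktb, for transaldolase and a transketolase of the pentose phosphate pathway, differed by 0.37 and 0.31 at 72 hpf and did not pass (limma adjusted p = 0.535 and 0.531).

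Among 22 genes of cysteine supply and sulfur amino acids 14 were tested, with a median of -0.06 at 72 hpf. At that age 0.479% of all probe sets rose, and in this list 1 gene rose. That was sqor, for the mitochondrial sulfide:quinone oxidoreductase, which hands sulfur on to glutathione. It read 8.64, 8.09 and 8.08 in Gulfport, Fort Morgan and Perdido Key arrays, against 7.34, 7.30 and 7.25 in controls (difference 0.97, SE 0.15, limma adjusted p = 0.0401). The exposed arrays were all well above the controls, as at 48 hpf (7.92 in Gulfport, 6.98 in the control) and 96 hpf (8.32 in Gulfport, 7.39 and 7.47 in controls). With age as a factor sqor rose by 0.95 (SE 0.10, adjusted p = 0.000381), while its call at 72 hpf was lost without Fort Morgan or any 1 control (adjusted p = 0.0918 to 0.188) and with array class as a block (0.0531). The cysteine dioxygenase gene cdo1, whose enzyme diverts cysteine away from glutathione, read 7.81, 8.47 and 8.50 in the exposed arrays, against 8.65, 8.92 and 9.31 in controls (difference -0.70, limma adjusted p = 0.427). The amino acid transporter gene slc1a4 differed by 0.52 (adjusted p = 0.525).

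Of 37 genes known as Nrf2 targets in mammals or zebrafish, 16 were tested and none fell. At 72 hpf 3 rose, with a median difference of 0.46, and 7 rose with age as a factor. Over all probe sets, 0.479% rose and 0.0918% fell at 72 hpf, and 1.07% rose and 0.235% fell with age as a factor. This list, too, was chosen with earlier results of these data known, so its counts beside these shares are a description. Of the 16, gadd45aa and ephx1 reached log2 6 in 1 exposed array each and in no control, so they entered the test only through an exposed array, and ephx1 is 1 of the 7. Among the other 14, 3 rose at 72 hpf and 6 with age as a factor, with a median of 0.45 at 72 hpf. At 72 hpf the risers were ugdh (1.65), gstp1.2 (1.37) and cbr1l (1.14), of UDP-glucose dehydrogenase, a glutathione S-transferase and a carbonyl reductase (limma adjusted p = 0.000503 to 0.0202). With age as a factor prdx1 (1.26, adjusted p = 0.00312) and txnb (0.95, adjusted p = 0.0255), of peroxiredoxin and thioredoxin, were among the risers. At 72 hpf the call of cbr1l was lost without control replicate 3, Gulfport or Fort Morgan (limma adjusted p = 0.0539 to 0.0865), while prdx1 passed without Perdido Key and txnb without Gulfport or Perdido Key (0.0226 to 0.0427). With all arrays kept, prdx1 passed at 72 hpf with array weights, the mean of probe sets, array class as a block and the spread of controls (limma adjusted p = 0.00379 to 0.0369), and txnb with the spread of controls (0.00659). With age as a factor txnb was lost without any 1 control at 48 or 72 hpf or 96 hpf control replicate 1. The same held without Fort Morgan or the Gulfport arrays at 48 or 96 hpf (limma adjusted p = 0.0538 to 0.0862 over all of these). With only Gulfport and control arrays txnb did not pass either (1.11, limma adjusted p = 0.0614). The stress gene gadd45aa (1.07) and the ferritin gene fthl27 (0.69) had the largest differences at 72 hpf among those that passed neither fit (adjusted p = 0.363 and 0.232). With the spread of controls fthl27 passed at 72 hpf (limma adjusted p = 0.0438). The signal of gadd45aa was 6.45 in the Gulfport array at 72 hpf and below 6 in all other arrays. In the liver list, 0 of 10 tested genes passed at 72 hpf with a median of -0.05, and 1, the ceruloplasmin gene cp, fell with age as a factor (by 0.53, limma adjusted p = 0.0185). That call needed control replicate 3 at 72 hpf, Fort Morgan and both arrays at 48 hpf (adjusted p = 0.0545 to 0.0723 without each). It was also lost with only Gulfport and control arrays (-0.57, limma adjusted p = 0.0856). The summed signal of the 12 liver markers was 14.62 on the log2 scale in Gulfport and 14.76 in Fort Morgan at 72 hpf, against 14.79 to 14.88 in controls, and Perdido Key lay within the range of controls. The brightest marker, apoa2 (13.66 to 13.91 over all arrays), weighs most in this sum, which thus does not stand for each marker. The marker fabp10a differed from the control mean at 72 hpf by -0.97 in Gulfport, 0.09 in Fort Morgan and 0.81 in Perdido Key. The part of liver RNA in the rises of the 6 genes was not tested. Of 9 markers of other tissues tested, 0 passed in either fit. At 72 hpf 0 of 9 were above 0 and the median was -0.21, against -0.02 over all probe sets tested. Their summed signal was 15.40, 15.41 and 15.49 in Gulfport, Fort Morgan and Perdido Key arrays, against 15.50 to 15.57 in controls of that age. In all 5 exposed arrays it lay below every control of the same age. The muscle marker actc1b (14.62 to 14.79 over all arrays, difference -0.01 at 72 hpf) weighs most in this sum, which thus does not stand for each tissue. The largest differences were those of the trypsin gene prss1 (-1.17) and the globin gene hbbe2 (-0.42), and prss1 passed with the spread of controls (adjusted p = 0.00631). The part of these tissues in the rises of the 6 genes was not tested.

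**Figure D4:**
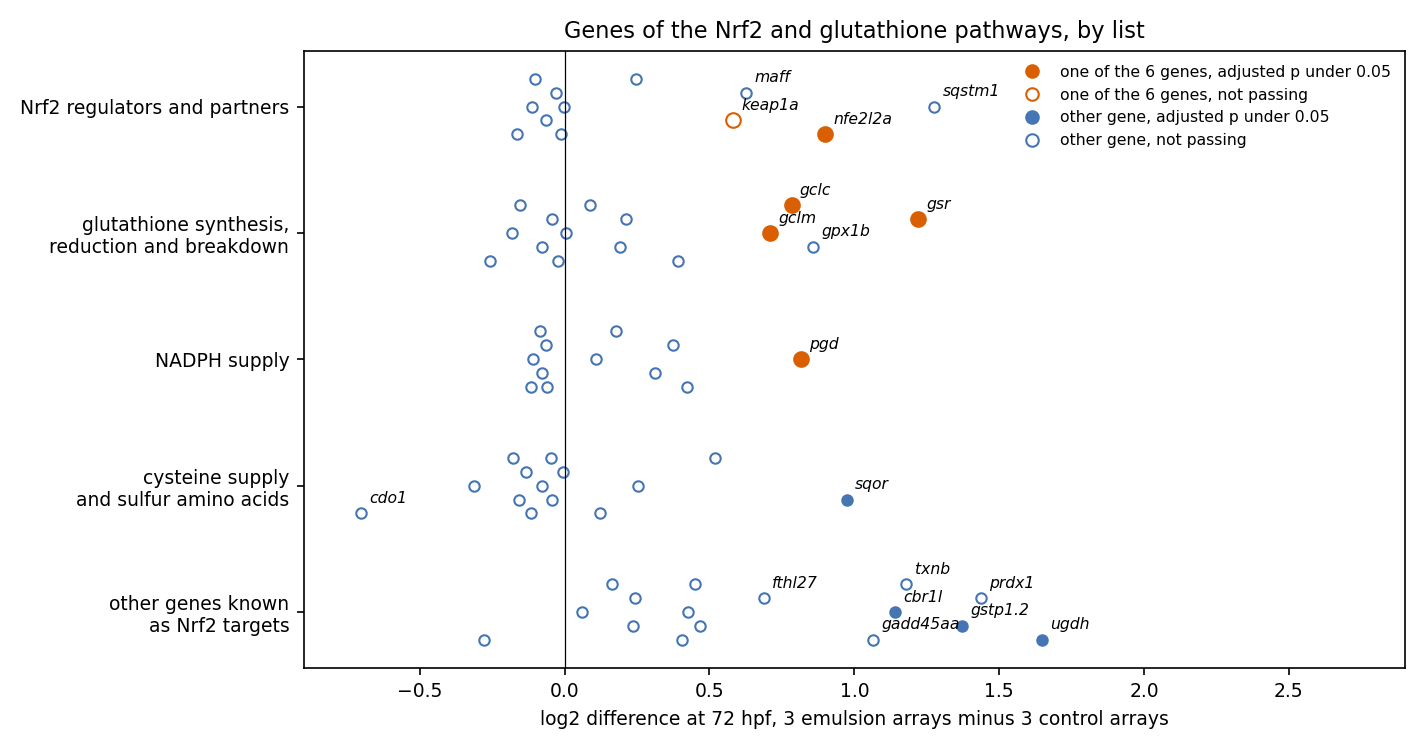
Log2 difference at 72 hpf, 3 emulsion arrays minus 3 controls (horizontal axis), for the tested genes of 5 pathway lists, 1 circle per gene, with the 6 genes of the text in orange and filled circles for an adjusted p under 0.05. In the first 4 lists most circles other than the orange ones lie close to 0. In the list of other Nrf2 targets 15 of 16 are above 0, where the median of all probe sets tested was -0.02. These include gadd45aa and ephx1, which entered the test only through an exposed array. All 5 lists were chosen with earlier results of these data known.

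The profiles of the 6 genes were compared after subtraction of the control mean of each age, over the 11 arrays, of which the 48 hpf control is 0 by construction. Pearson correlations between pairs of the 6 genes, with the brighter probe set of nfe2l2a, lay between 0.76 (keap1a and gclc) and 0.98 (nfe2l2a and pgd). The second probe set of nfe2l2a correlated at 0.42 with keap1a, 0.51 with gclm, 0.55 with gclc, 0.70 with pgd and 0.72 with gsr. All points share the contrast of exposed with control arrays, so the correlations are a description. The genes of most similar profile among about 1100 named candidates were gstp1.2 (0.99), gsto2 (0.99) and sult6b1 (0.98) for gsr. For nfe2l2a they were pgd (0.98), gstp1.2 (0.98) and aifm2 (0.98), and for pgd nfe2l2a (0.98), cyp2y3 (0.98) and si:ch211-207n23.2 (0.98). For gclc they were the fatty acid binding protein gene fabp1b.1 (0.98), notum1b (0.96) and bpnt1 (0.96), and for gclm ugdh (0.97), prrx1a (0.96) and nuak2 (0.95). For keap1a they were nucb1 (0.96), prdx1 (0.96) and si:ch211-207n23.2 (0.94).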

How the data were processed

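The authors deposited normalized probe set values on the log2 scale, computed by RMA per the submitters' processing notes, a method of background correction, quantile normalization and 1 summary value per probe set. Its software is not given in the sources used here. The method compresses small differences of dim probe sets and hides shifts in total RNA. Of 15617 probe sets, 115 AFFX controls were left out, and 9803 that reached log2 6 on any array were tested. Symbols came from the platform annotation, updated by Entrez identifier through a RefSeq table of assembly GRCz12tu, and a gene was represented by its brightest probe set. Tests used limma 3.58.1 in R 4.3.3 (lmFit, eBayes) with Benjamini-Hochberg adjustment over all 9803 and a threshold of 0.05: exposed against control at 72 hpf, all arrays with age as a factor, and single-group contrasts in a model of the group means (3 residual degrees of freedom, all from controls at 72 and 96 hpf). The fits were also run on simulated data with the spread of controls and the same effect in all exposed arrays. That setting has no differences between emulsions or windows, so it does not test their use as replicates.

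The 6 genes and all lists were chosen with earlier results of these data known. From each list the text names at most 4 genes per direction that passed at 72 hpf or with age as a factor, and the 2 of largest difference that passed neither. The genes cbr1l, crebbpa, nfe2 and nfe2l3 were added after their values were seen. Likeness took the 3 genes of highest Pearson correlation among those at least 0.5 from a control mean in 1 array. Alternatives were the filter, scaling, moderation, array weights, probe set choice, arrays left out and, chosen after seeing the data, array class (arrays at 72 hpf divided by lower quartile) as a block and Nrf2 targets without those at the filter only through exposed arrays. The number of arrays limits the precision. Figures used Python 3.11.15 and matplotlib 3.10.9.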

Additional observations from a re-analysis of the deposited data

Results flagged for a closer look

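Among the genes named beside the 6, slc1a4 differed in opposite directions in separate Gulfport windows, by 0.99 at 0 to 48 hpf and -0.21 at 48 to 96 hpf. That opposite direction was not tested, since the 48 hpf pair has 1 array on each side. The gene gadd45aa differed by -0.02 at 0 to 48 hpf and by 1.07 over the 3 emulsions at 24 to 72 hpf (1.82 for Gulfport alone). Its early value is close to 0 at a signal below log2 6 (4.45 in Gulfport and 4.47 in the control), so it gives no direction, and the difference between windows was not tested.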

How the results depend on the processing

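None of the 6 genes changed sign in an exposure comparison under any alternative run. Among controls, the difference in gclm ranged from -0.26 without 96 hpf control replicate 2 to 0.013, a turn of sign, without replicate 1 (limma adjusted p = 0.9748). At 72 hpf 5 genes passed in each alternative that kept all arrays, except 4 with the mean of probe sets. Leaving out 1 array gave 1 to 5 genes and 23 to 83 probe sets, against 56, and the spread of controls alone gave 129 probe sets. With age as a factor, leaving out 1 array gave 4 to 6 genes and 81 to 124 probe sets, against 128, and only Gulfport with controls gave 3 genes and 75 probe sets. For Gulfport at 72 hpf the ranges without 1 control were 3 to 5 genes and 100 to 320 probe sets, for Fort Morgan 0 to 0 and 12 to 21, for Perdido Key 1 to 1 and 17 to 20. For Gulfport at 96 hpf they were 0 to 0 and 5 to 14, and for the late minus middle window 0 to 0 and 0 to 50, the 50 without 96 hpf control replicate 1. A variance trend with robust moderation gave 6 genes and 364 probe sets for Gulfport at 72 hpf, 2 genes and 41 probe sets for Fort Morgan, 36 probe sets for Perdido Key, 1 gene and 26 probe sets at 96 hpf, and 2 probe sets between windows. No filter gave 18 probe sets at 96 hpf. Controls at 96 against 72 hpf called 3 genes and 941 probe sets, and 1 to 3 genes and 382 to 941 probe sets with 1 control left out. With the control replicate number as a replicate block, they called 2 genes and 784 probe sets, and gclc did not pass (0.43, adjusted p = 0.0899); same-numbered controls correlated at -0.05 and -0.06 in their deviations, and the labels tie them by number only. The causes of these changes were not tested, beyond the loss of an array. Rescaling moved the median of all probe sets by less than 0.1.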
